A study of Mus musculus with 20 samples.

Results

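Genes that mark classes of cortical and hippocampal interneurons by something other than a neuropeptide were followed, 10 in all: Pvalb, Lhx6, Lamp5, Reln, Calb2, Sp8, Adarb2, Cnr1, Nos1 and Erbb4. They were taken by symbol from the 24421 genes counted in every library, and all 10 of them were present and passed the filter on low counts in each comparison. RNA-seq libraries were made from the neocortex (NCX) and the hippocampus (HP) of mice aged 3 months. Each combination of genotype and region had 5 libraries, which makes 20. The cTKO mice carried floxed alleles of App, Aplp1 and Aplp2 (the APP family) together with a Camk2a-Cre transgene, whose promoter is active in excitatory neurons of the postnatal forebrain. Their littermate controls carried the floxed alleles without Cre, and the labels call them wild type. Both sexes were used, on a mixed C57BL/6J and 129 background. Interneurons were thus not the cells in which the Camk2a promoter drives the deletion, and the question is how their markers stood in tissue whose excitatory neurons lack the APP family. Levels are given as CPM, the counts of a gene relative to the library size scaled by the TMM method, and each value with ± is a mean ± SD over n = 5 libraries.

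GABAergic interneurons of the forebrain are born mainly in the medial and the caudal ganglionic eminence (MGE and CGE). MGE-derived cells depend on the transcription factor Lhx6 and include the fast-spiking cells that contain the calcium-binding protein parvalbumin (Pvalb) and the cells that contain somatostatin. CGE-derived cells share Adarb2, an RNA-binding protein of the ADAR family, and include cells marked by Vip, by calretinin (Calb2) and, among neurogliaform cells, by Lamp5 and reelin (Reln). Sp8 is a zinc finger transcription factor of CGE-derived cells, Cnr1 is the CB1 cannabinoid receptor concentrated on the terminals of cholecystokinin basket cells, Nos1 is neuronal nitric oxide synthase, and Erbb4 is the neuregulin receptor of many interneurons. Several of these genes are also used outside interneurons. Lamp5 is known in pyramidal neurons of the upper and middle layers of the neocortex, Calb2 in mossy cells and Cajal-Retzius cells of the mouse hippocampus, Reln in Cajal-Retzius cells, and Cnr1 at a low level in excitatory neurons.

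The labels held up in the libraries. App lay between 1501 and 1811 CPM in control NCX and 331 and 407 CPM in cTKO NCX, and between 1377 and 1646 CPM in control HP and 432 and 461 CPM in cTKO HP. Aplp1 and Aplp2 did not overlap between the genotypes in either region. The interneuron genes Gad1, Gad2 and Slc32a1, which make and load GABA, were present in all 20 libraries, with Gad1 at no less than 267 CPM. A pair of libraries, cTKO HP 4 and cTKO NCX 5, stood apart by genes of embryonic tissue: the embryonic globin gene Hbb-y was at 120.9 and 193 CPM in them and at most 0.818 CPM in the other 18. The 3 Hox genes of that list, Hoxa9, Hoxc8 and Hoxd10, were at 0 in both libraries. The tests of the members were also run without these 2 libraries, and the value is given where it alters a call. Other lists set libraries apart as well. Choroid plexus markers summed to 2712 CPM in control HP 3 and to 76.6 to 494 CPM in the other control HP libraries. Astrocyte markers summed to 4802 CPM in cTKO HP 4 and to 1874 to 3110 CPM in the rest of its group. Total counts ran from 12169474 to 25331954 per library, so that 3 counts, taken as the smallest readable level, corresponded to 0.118 to 0.247 CPM. The scarcest member, Sp8, had 20 to 52 counts in a library, so that its relative counting error was the largest of the members. By the methods of the study both regions came from the same 5 mice of each genotype, so the 20 libraries stand for 10 mice, but the labels do not tie a library to a mouse. Tests between regions and of the interaction took the libraries as independent, and p-values measure the spread between them.

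**Figure D1:**
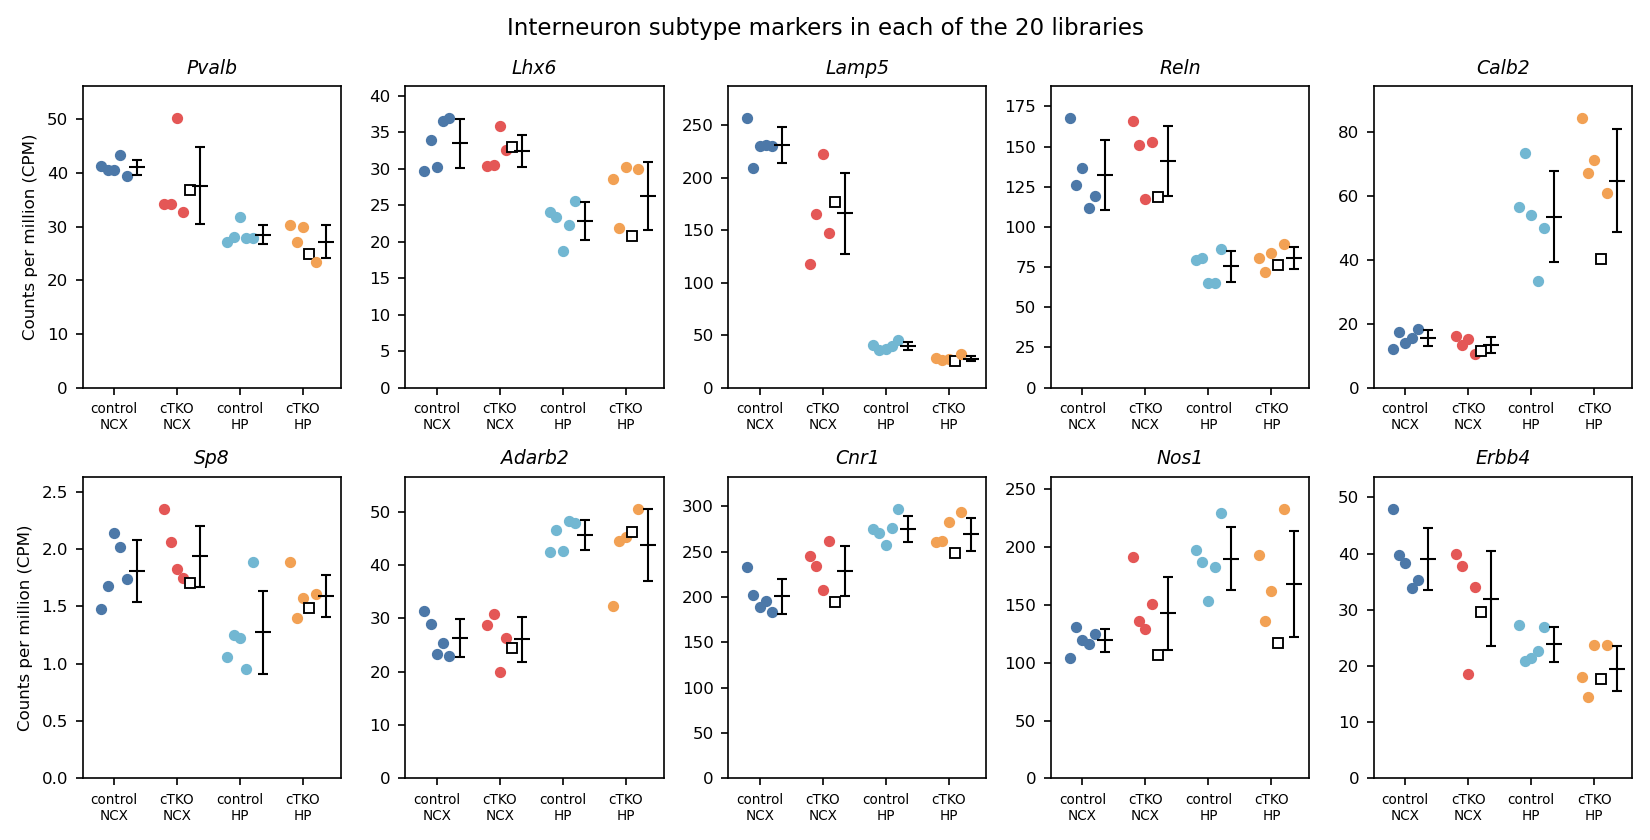
Level of each gene in CPM (vertical axes, each starting at 0) in the 5 libraries of each genotype and region. Filled circles are libraries, open squares are cTKO HP 4 and cTKO NCX 5, and the black mark to the right of each group is the mean with its SD. Lamp5 in HP lay between 36.02 and 45.3 CPM for controls and between 25.3 and 32.2 CPM for cTKO mice, and Calb2, Adarb2, Pvalb, Lhx6, Reln and Lamp5 separate the regions in both genotypes.

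Genes can be ranked against each other only after division by length. Per kilobase of merged exons (GENCODE M21), Lamp5 was the highest of the members in control NCX at 78.9 CPM per kb, followed by Pvalb at 39.5 and Cnr1 at 31.2 CPM per kb, and none of these 3 overlapped with the next in order. Nos1 (10.7 CPM per kb), Calb2 (8.89), Lhx6 (6.96) and Reln (5.57) came next, and each of these 4 overlapped with its neighbours among them. Erbb4 (3.16 CPM per kb) and Adarb2 (2.01) lay below them, and Sp8 was last at 0.397 CPM per kb. In control HP the order was led by Cnr1 at 42.7 CPM per kb, with Calb2 at 30.7 and Pvalb at 27.4 CPM per kb, 3 genes whose neighbours in the order overlapped. Lamp5 stood lower there, at 13.5 CPM per kb, overlapping with Nos1 at 17.1 CPM per kb. Lhx6 (4.75), Adarb2 (3.47), Reln (3.18), Erbb4 (1.93) and Sp8 (0.279 CPM per kb) followed, with overlap between Adarb2 and Reln alone.

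**Figure D2:**
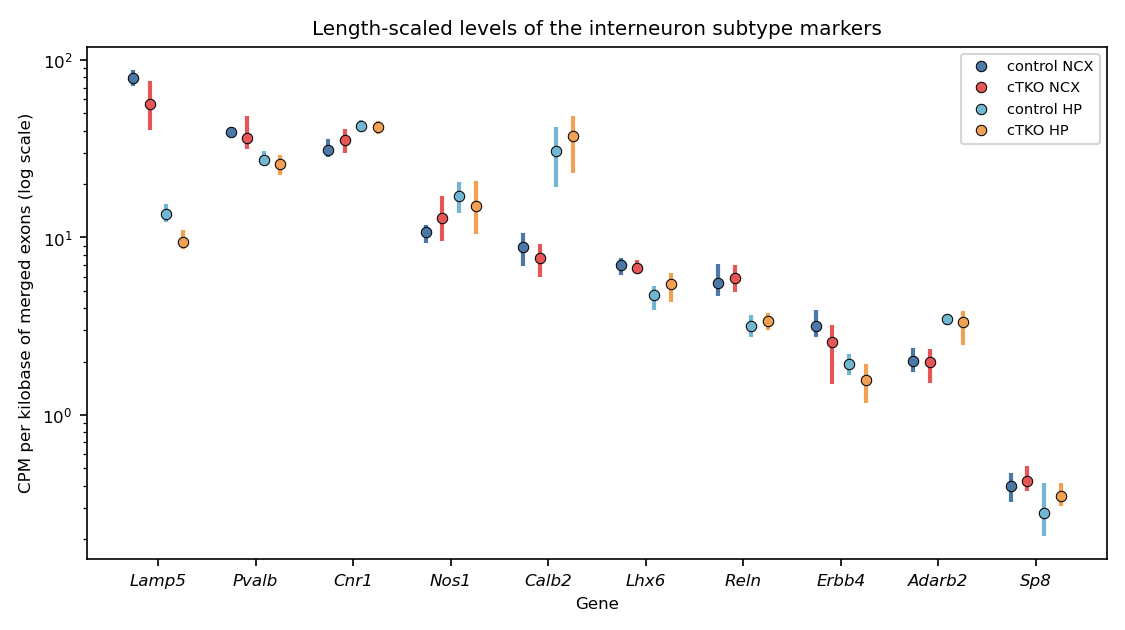
Mean CPM per kilobase of merged exons (vertical axis, log scale) for each gene in the 4 groups, ordered by the level in control NCX. Points are means and vertical lines run from the lowest to the highest of 5 libraries. Lamp5 falls from the first place in control NCX, at 78.9 CPM per kb, to 13.5 CPM per kb in control HP, and Calb2 goes from 8.89 to 30.7 CPM per kb.

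Pvalb and Reln were lower in HP than in NCX in both genotypes and Nos1 was higher in HP in controls, as described further on. The sequences before their RefSeq starts are shown. These 3 are the members whose RefSeq start region (GRCm38.p6) lies wholly before the gene as RefSeq bounds it. For Nos1 that is the start of a shorter transcript, inside the gene as GENCODE bounds it. Each run is the 250 bases before the start, 5′ to 3′ on the strand of the gene, with every CG dinucleotide in capitals. Pvalb lies at chr15:78191114-78206400 on the minus strand and Reln at chr5:21884454-22344702, also on the minus strand, and Nos1 at chr5:117781032-117958840 on the plus strand (GENCODE M21), where the shown window falls in an intron of a longer Nos1 transcript.
Pvalb, chr15:78206401-78206650 (-): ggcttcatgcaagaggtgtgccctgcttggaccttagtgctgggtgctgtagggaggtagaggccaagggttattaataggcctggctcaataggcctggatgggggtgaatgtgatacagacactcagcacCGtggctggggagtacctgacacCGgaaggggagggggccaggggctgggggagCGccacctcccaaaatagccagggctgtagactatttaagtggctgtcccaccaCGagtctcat
Reln, chr5:22344706-22344955 (-): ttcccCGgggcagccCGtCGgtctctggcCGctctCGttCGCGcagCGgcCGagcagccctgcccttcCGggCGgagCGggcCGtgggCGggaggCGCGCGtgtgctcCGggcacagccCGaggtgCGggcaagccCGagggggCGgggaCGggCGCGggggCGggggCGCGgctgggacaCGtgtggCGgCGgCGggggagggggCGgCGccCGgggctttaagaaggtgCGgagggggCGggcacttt
Nos1, chr5:117866589-117866838 (+): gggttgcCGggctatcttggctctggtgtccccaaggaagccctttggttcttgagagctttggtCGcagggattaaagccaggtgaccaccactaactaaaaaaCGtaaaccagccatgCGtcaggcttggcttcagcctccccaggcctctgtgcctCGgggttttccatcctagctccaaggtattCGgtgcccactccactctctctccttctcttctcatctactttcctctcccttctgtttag
The window of Reln held 37 CG dinucleotides and was 80.00% G and C, and 2.2% of the 32851 start windows of the same length held as many. That of Pvalb held 4 at 58.4% G and C, a count reached by 62.2% of windows, and that of Nos1 held 6, the median of all windows. The start regions of Pvalb and Reln were thus unlike in composition, and a relation of composition to the region differences was not tested. Windows were given for 9 of the 10 members, and Calb2 had none.

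The first question was whether the markers differed between cTKO and control mice within a region. In NCX, none of the 10 members was called at an FDR under 0.05 (quasi-likelihood test of edgeR), where 0.188% of all 13843 genes were. Of the members, 3 had an unadjusted p under 0.05 (Lamp5, Cnr1 and Nos1), where 10.4% of all genes had one, and the edgeR exact test and DESeq2 each called 1 member, Lamp5. In HP, 1 of 10 members, Lamp5, was called and was lower, where 0.489% of 13702 genes were called and 0.175% were called lower. No member in NCX was without overlap between the genotypes, beside 2.36% of all genes. The median log2 fold change of the members was -0.023 in NCX and -0.044 in HP, beside 0.0090 and 0.0049 over all genes tested. In bulk tissue, fewer cells of a type and less RNA per cell cannot be told apart.

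Lamp5 encodes a lysosome-associated membrane protein of neurons and lies at chr2:136052239-136069917 on the plus strand. In HP it was at 41.05, 36.02, 36.4, 39.2 and 45.3 CPM in the control libraries and at 27.8, 26.01, 26.9, 25.3 and 32.2 CPM in the cTKO libraries. The 5 cTKO libraries all lay under the lowest control, which was so for 1 of the 10 members in HP and, in either direction, for 3.13% of all genes. The means were 39.6 ± 3.80 and 27.7 ± 2.72 CPM, and Lamp5 fell by 0.52 on the log2 scale (SE 0.086, adjusted p = 0.0204, edgeR quasi-likelihood test), to 0.699 of the control level. The exact permutation test over libraries gave p = 0.00794, the smallest that 5 libraries against 5 allow. Without the 2 libraries that stood apart, the log2 fold change was -0.49 (adjusted p = 0.0357). The call was lost when control HP 1 (adjusted p = 0.0642), control HP 4 (0.0667), control HP 5 (0.0508) or cTKO HP 2 (0.0610) was left out, with log2 fold changes from -0.52 to -0.46.

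In NCX, where its level was several times higher, Lamp5 was at 257, 209, 230.2, 232 and 230.2 CPM in controls and at 118, 165, 223, 147 and 177 CPM in cTKO mice. The groups overlapped through cTKO NCX 3, the highest of its group, and the other 4 cTKO libraries lay below all controls. The log2 fold change was -0.47 (SE 0.13, 95% interval -0.75 to -0.20, unadjusted p = 0.00256, adjusted p = 0.187), close in size to that in HP but not called, and the exact permutation test gave p = 0.0159. DESeq2 (adjusted p = 0.0248) and the edgeR exact test (adjusted p = 0.0367) called it, as did the quasi-likelihood test without cTKO NCX 3 (log2 fold change -0.60, adjusted p = 0.0211). The difference between the 2 regions in the genotype effect on Lamp5 was -0.035 (95% interval -0.38 to 0.31). The 6 markers of excitatory neurons, in which Lamp5 is also known, summed to 7440 to 8202 CPM in control and 6504 to 7779 CPM in cTKO libraries of NCX. In HP they summed to 9106 to 10401 and 8080 to 9882 CPM. Most of each sum was Camk2a, with means of 5887 and 4702 CPM in NCX and 7973 and 6898 CPM in HP. None of the 6 was called by genotype in either region, beside 0.188% and 0.489% of all genes. An unadjusted p under 0.05 was found for 2 of the 6 in NCX and 3 in HP, beside 10.4% and 12% of all genes. The median log2 fold change of the 6 was 0.027 in NCX and -0.22 in HP. The part of excitatory neurons in the Lamp5 difference was not tested.

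**Figure D3:**
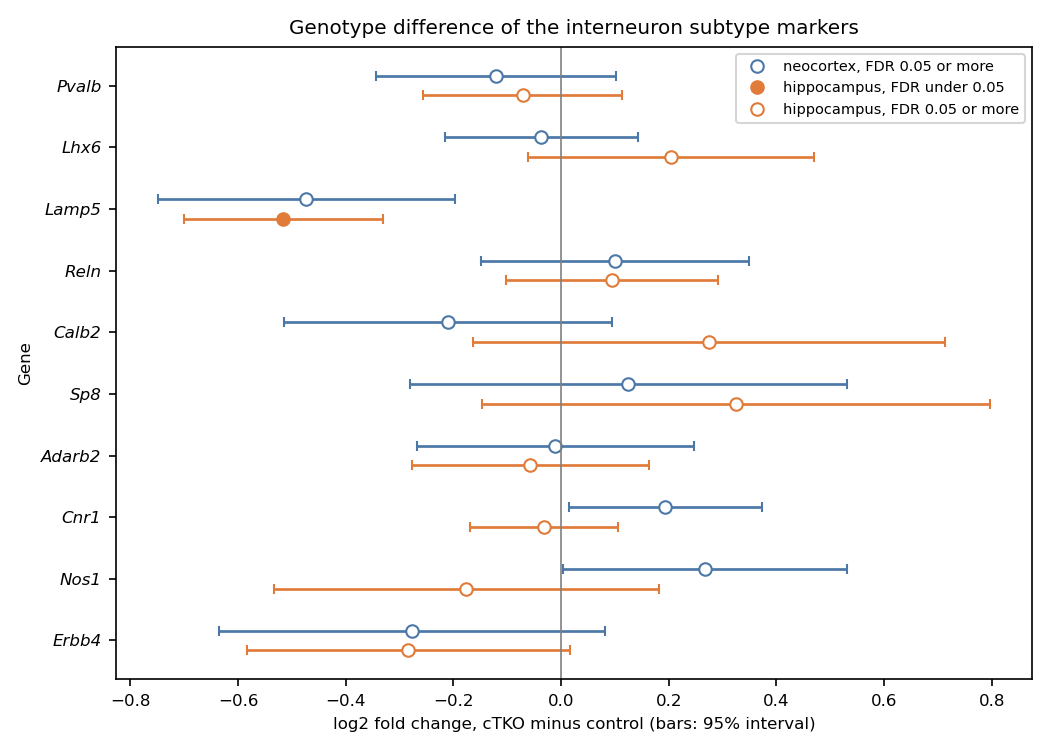
Genotype difference of each gene as log2 fold change, cTKO minus control (horizontal axis), in NCX (blue) and HP (orange), with 95% intervals from edgeR's quasi-likelihood fit. Filled points passed an FDR of 0.05. Only Lamp5 in HP, at -0.52, is filled, and its NCX point at -0.47 has an interval that also lies below 0.

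Pvalb and Lhx6, the members that mark MGE-derived cells, were not called by genotype. Pvalb was at 41.3, 40.6, 40.7, 43.3 and 39.5 CPM in control NCX and at 34.3, 34.2, 50.2, 32.7 and 36.8 CPM in cTKO NCX. Here 4 of 5 cTKO libraries lay below all controls and cTKO NCX 3 lay above them all, for a log2 fold change of -0.12 (95% interval -0.34 to 0.10, adjusted p = 0.739). In HP, Pvalb was at 28.5 ± 1.84 and 27.2 ± 3.07 CPM (log2 fold change -0.071, adjusted p = 0.813). Lhx6, at chr2:36081953-36105408 on the minus strand, was at 33.4 ± 3.38 and 32.5 ± 2.20 CPM in NCX (log2 fold change -0.037, adjusted p = 0.922) and at 22.8 ± 2.56 and 26.3 ± 4.63 CPM in HP (0.20, 95% interval -0.062 to 0.47, adjusted p = 0.559). Its exons overlap with Gm27953, a small RNA gene on the same strand, so reads from the shared part may not all have been counted for Lhx6.

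Among the markers of CGE-derived and neurogliaform cells other than Lamp5, none was called. Reln was at 132 ± 21.8 CPM in control NCX and 141 ± 21.8 CPM in cTKO NCX, a log2 fold change of 0.10 (95% interval -0.15 to 0.35). In HP the values were 75.4 ± 9.76 and 80.5 ± 6.79 CPM, with a log2 fold change of 0.095 (-0.10 to 0.29). Adarb2, at chr13:8202866-8768747 on the plus strand, was the member with the smallest genotype difference in NCX, at 26.3 ± 3.62 and 26.03 ± 4.22 CPM (log2 fold change -0.010, 95% interval -0.27 to 0.25), and it was at 45.5 ± 2.82 and 43.8 ± 6.77 CPM in HP (-0.057, -0.28 to 0.16). Sp8, at chr12:118846329-118852576 on the plus strand, had only 1.81 ± 0.269 and 1.94 ± 0.267 CPM in NCX, and 1.27 ± 0.363 and 1.59 ± 0.184 CPM in HP. Its log2 fold change of 0.33 in HP carried a 95% interval from -0.15 to 0.80, and the control HP libraries alone ran from 0.951 to 1.88 CPM.

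Calb2, at chr8:110137502-110168210 on the minus strand, had libraries that differed widely within HP, in both genotypes. The control libraries had 56.5, 73.2, 53.97, 33.4 and 49.99 CPM there and the cTKO libraries 84.1, 67.00, 71.1, 40.3 and 60.6 CPM. The groups overlapped through most of their range, and the log2 fold change was 0.27 (95% interval -0.16 to 0.71, adjusted p = 0.661). In NCX the means were 15.5 ± 2.61 and 13.3 ± 2.38 CPM, with a log2 fold change of -0.21 (adjusted p = 0.654). Markers of other HP cells were read beside it. Those of immature granule neurons, which pass through a calretinin stage in the dentate gyrus, summed to 79.4 to 94.4 CPM in control HP and 112 to 138 CPM in cTKO HP, and 3 of the 5 measured there rose: Dcx (log2 fold change 0.67, adjusted p = 0.0143), Sox11 (1.04, 0.0456) and Igfbpl1 (1.76, 0.00487). Of all genes tested in HP, 0.489% were called in either direction. Mossy cell markers summed to 68.5 to 75.7 CPM in control and 60.8 to 76.5 CPM in cTKO HP, and Cajal-Retzius markers to 12.4 to 17.7 and 14.1 to 26.5 CPM. The part of these cells in the Calb2 level was not tested.

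Cnr1 and Nos1 had log2 fold changes of opposite sign in the 2 regions and were called in neither. Cnr1, at chr4:33924593-33948831 on the plus strand, was at 233, 203, 189, 196 and 184 CPM in control NCX and at 245, 234, 208, 262 and 194 CPM in cTKO NCX. Of the cTKO libraries 3 lay above all controls, and the log2 fold change was 0.19 (95% interval 0.014 to 0.37, unadjusted p = 0.0364, adjusted p = 0.434). In HP it was at 275 ± 14.4 and 269 ± 18.3 CPM (log2 fold change -0.032, adjusted p = 0.908).

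Nos1 was at 104, 131, 120.0, 117 and 125 CPM in control NCX and at 192, 136, 129, 151 and 107 CPM in cTKO NCX. The groups overlapped, with 3 cTKO libraries above all controls, and the log2 fold change was 0.27 (95% interval 0.0041 to 0.53, unadjusted p = 0.0470, adjusted p = 0.472). Without cTKO NCX 1, the highest library, it was 0.14. In HP the controls had 197, 188, 153, 183 and 229.7 CPM and the cTKO libraries 193, 136, 162, 117 and 233 CPM (log2 fold change -0.18, adjusted p = 0.746). Leaving out single libraries moved this value between -0.32 (without cTKO HP 5) and -0.075 (without cTKO HP 4). For Nos1 the cTKO libraries spread more widely than the controls in both regions, with coefficients of variation of 22.2% against 8.52% in NCX and 27.4% against 14.5% in HP. This was not particular to Nos1. In NCX it was also so for Pvalb (19.1% against 3.42%), Lamp5 (23.4% against 7.32%), Erbb4, Calb2, Adarb2 and Cnr1, but not for Lhx6, Reln or Sp8. Exons of Nos1 and Reln overlap with antisense genes, Gm26995 and Gm10475, and since it is not given whether the counting used strand, reads of each pair cannot be told apart.

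Erbb4, a receptor tyrosine kinase at chr1:68032186-69108059 on the minus strand, was at 47.9, 39.7, 38.3, 33.8 and 35.4 CPM in control NCX and at 39.9, 37.7, 18.5, 34.1 and 29.7 CPM in cTKO NCX. The groups overlapped, with cTKO NCX 3 the lowest of all 10 libraries, and the log2 fold change was -0.28 (95% interval -0.63 to 0.082, adjusted p = 0.607), or -0.13 without that library. In HP the control libraries had 27.4, 20.8, 21.5, 22.6 and 26.9 CPM and the cTKO libraries 18.00, 14.5, 23.8, 17.7 and 23.7 CPM. Of the cTKO libraries 3 lay below all controls and the other 2 within their range, and the log2 fold change was again -0.28 (95% interval -0.58 to 0.017, unadjusted p = 0.0620, adjusted p = 0.444). cTKO NCX 3 thus had the highest Pvalb and Lamp5 and the lowest Erbb4 and Adarb2 (19.9 CPM) of the cTKO NCX libraries. Its oligodendrocyte markers summed to 5612 CPM, against 2828 to 3730 CPM in the rest of its group. A relation between that sum and the members was not tested.

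None of the 10 genes common to GABAergic neurons was called by genotype in either region, where 0.188% (NCX) and 0.489% (HP) of all genes were. In each region 2 of the 10 had an unadjusted p under 0.05, beside 10.4% and 12% of all genes. Gad2 had a log2 fold change of 0.45 in NCX (adjusted p = 0.121) and 0.30 in HP (adjusted p = 0.0897), Gad1 of 0.17 and 0.19, and Slc32a1 of 0.20 and 0.18. The peptide genes Sst and Vip had 0.14 and -0.35 in NCX, and -0.022 and -0.072 in HP, and neither was called. Against this reference, the mean log2 CPM of Gad1, Gad2 and Slc32a1, Lamp5 stood 0.30 ± 0.14 above in control NCX and at -0.46 ± 0.46 in cTKO NCX, and at -1.96 ± 0.092 and -2.70 ± 0.14 in HP (log2, n = 5). The groups did not overlap in either region, and the difference between the genotypes was -0.76 in NCX and -0.74 in HP. Erbb4, at -2.28 ± 0.13 and -2.85 ± 0.43 in NCX and -2.70 ± 0.13 and -3.22 ± 0.31 in HP, did not overlap either, with differences of -0.58 and -0.53. With the median of all 10 pan-GABAergic genes as the reference the differences were smaller, -0.50 and -0.55 for Lamp5 and -0.31 and -0.33 for Erbb4. Pvalb and Cnr1 also did not overlap in HP, with differences of -0.30 and -0.26 that became -0.11 and -0.063 with the median. Without the 2 libraries that stood apart, a computation added after the data were seen, the differences were -0.88 and -0.76 for Lamp5, -0.65 and -0.55 for Erbb4, and in HP -0.32 for Pvalb and -0.28 for Cnr1. The reference genes had positive log2 fold changes in both regions, which lowers the ratio of every member in cTKO mice. In log2 CPM without the reference, the genotypes overlapped for Lamp5 in NCX, Erbb4 in both regions, and Pvalb and Cnr1 in HP. The share of all genes without overlap in such a ratio was not computed. These ratios are given as descriptions, with no test.

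The second question was how the markers differ between NCX and HP. RNA was extracted with a different kit in each region, so region and kit cannot be told apart. In control mice 9 of the 10 members were called, 4 higher and 5 lower in HP, where 59.1% of 13832 genes were called, 29.8% higher and 29.2% lower. In cTKO mice 7 of the 10 were called, 2 higher and 5 lower, where 41.3% of 13846 genes were called, 20.2% higher and 21.1% lower. The groups did not overlap for 9 members in controls and for 6 in cTKO mice, beside 44.2% and 28.8% of all genes. The median log2 difference of the members, HP minus NCX, was -0.52 in controls and -0.31 in cTKO mice, beside 0.012 and -0.0028 over all genes.

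**Figure D4:**
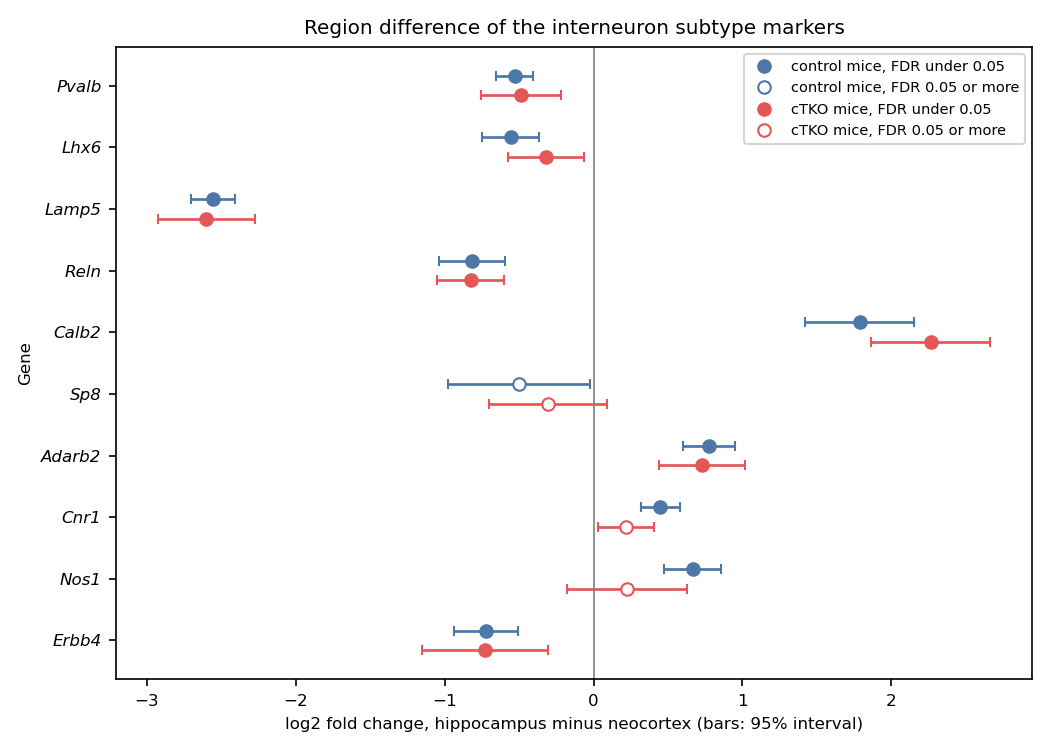
Region difference of each gene as log2 fold change, HP minus NCX (horizontal axis), in control mice (blue) and cTKO mice (red), with 95% intervals from edgeR's quasi-likelihood fit. Filled points passed an FDR of 0.05. Lamp5 lies near -2.6 in both genotypes (-2.56 and -2.60) and Calb2 at 1.79 and 2.27, while Cnr1 and Nos1 are filled in control mice only.

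Lamp5 was 231.5 CPM in control NCX and 39.6 CPM in control HP, and the lowest NCX library of either genotype, at 118 CPM, was above the highest HP library, at 45.3 CPM. HP was lower by 2.56 (SE 0.070, adjusted p = 7.46e-13) in controls and 2.60 (SE 0.15, adjusted p = 8.53e-08) in cTKO mice on the log2 scale. Reln was lower by 0.82 (SE 0.10, adjusted p = 7.23e-06) and 0.83 (SE 0.10, adjusted p = 5.41e-05), with HP libraries at 64.9 to 89.3 CPM and NCX libraries at 112 to 168 CPM over both genotypes. Erbb4 was lower in HP by 0.72 and 0.73 (adjusted p = 1.94e-05 and 0.00952), although in cTKO mice cTKO NCX 3 brought the regions to overlap. Pvalb was lower by 0.53 (adjusted p = 1.95e-06) and 0.49 (adjusted p = 0.00737). The interaction of genotype and region for these 4 genes lay between -0.035 (Lamp5) and 0.056 (Pvalb) on the log2 scale, and none was called.

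Lhx6 was also lower in HP, by 0.56 in controls (SE 0.090, adjusted p = 7.53e-05) and 0.32 in cTKO mice (SE 0.12, adjusted p = 0.0429). The second call was lost in 7 of the 10 fits that left out 1 library. Without cTKO HP 4 and cTKO NCX 5 it became -0.23 (adjusted p = 0.137), without cTKO HP 4 alone -0.24 (0.0919) and without cTKO NCX 5 alone -0.31 (0.0759). It was also lost without cTKO HP 2 (adjusted p = 0.0996), cTKO NCX 1 (0.0527), cTKO NCX 2 (0.0563), cTKO NCX 3 (0.0821) or cTKO NCX 4 (0.0700), and with no filter on low counts (-0.30, adjusted p = 0.0665). Sp8 had log2 differences of -0.50 (SE 0.22, adjusted p = 0.0652) in controls and -0.30 (SE 0.18, adjusted p = 0.205) in cTKO mice and was not called. Without control HP 5, the highest control HP library at 1.88 CPM, or without control NCX 1, the lowest control NCX library at 1.48 CPM, the difference in controls was called (adjusted p = 0.0144 and 0.0488), as it was in one fit of all 20 libraries (0.0396).

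Calb2 was the marker with the greatest excess in HP. NCX libraries ran from 10.5 to 18.4 CPM and HP libraries from 33.4 to 84.1 CPM over both genotypes, and the log2 difference was 1.79 in controls (SE 0.17, adjusted p = 4.06e-07) and 2.27 in cTKO mice (SE 0.18, adjusted p = 1.54e-06). The 6 Cajal-Retzius markers summed to 2.54 to 4.24 CPM in control NCX and 12.4 to 17.7 CPM in control HP. All 4 that were measured well enough for the test were called higher in HP in both genotypes. Of all genes, 29.8% were called higher in controls and 20.2% in cTKO mice. Mossy cell markers summed to 81.2 to 101.5 CPM in control NCX and 68.5 to 75.7 CPM in control HP. Most of each sum was Ajap1, with means of 64.8 and 53.1 CPM. Taken singly, 3 of the 5 mossy cell markers were called higher in HP and 2 lower in controls (median log2 difference 0.795). In cTKO mice 1 of the 4 tested was called higher and 2 lower. Drd2, among those lower in controls, is also on the list of striatal neurons. Its means were 14.5 CPM in control NCX and 2.38 CPM in control HP. Of all genes, 29.2% were called lower in controls and 21.1% in cTKO mice. Reln, the other member known in Cajal-Retzius cells, was lower in HP, as given above. The part of these cells in the 2 levels was not tested. Adarb2 was higher in HP by 0.78 in controls (SE 0.083, adjusted p = 1.22e-06) and 0.73 in cTKO mice (SE 0.13, adjusted p = 8.70e-04), with HP libraries at 32.4 to 50.5 CPM and NCX libraries at 19.9 to 31.3 CPM.

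Cnr1 and Nos1 were called between the regions in controls and not in cTKO mice. Cnr1 was higher in HP by 0.45 in controls (SE 0.062, adjusted p = 1.75e-05) and had a difference of 0.22 in cTKO mice (SE 0.087, adjusted p = 0.0580). The latter was called by DESeq2 (adjusted p = 0.0398), in one fit of all 20 libraries (0.0170), and without cTKO HP 4 (0.0446) or cTKO NCX 4 (0.0288). Nos1 was higher in HP by 0.67 in controls (SE 0.090, adjusted p = 1.37e-05) and had a difference of 0.22 in cTKO mice (SE 0.19, adjusted p = 0.368). Whether the region difference itself depended on genotype was tested by the interaction over all 20 libraries. None of the 10 members was called, where 0.0564% of 14192 genes were, none had an unadjusted p under 0.05, where 3.75% of genes had one, and DESeq2 called none either. The lowest unadjusted p-values were those of Nos1 (interaction -0.44, SE 0.22, p = 0.0641), Cnr1 (-0.22, SE 0.11, p = 0.0648) and Calb2 (0.49, SE 0.27, p = 0.0845), each with an adjusted p = 0.9999 (n = 20 libraries, of 10 mice). A difference between the genotypes in the region effect on Cnr1 or Nos1 was therefore not shown.

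Genes of the pathways around the members were read from 8 lists with 88 genes, of which 82 were tested in NCX and 83 in HP. By genotype, 1 of them was called in NCX, where 0.188% of all genes were, and none in HP, where 0.489% were. The former was Crhbp, the binding protein of corticotropin-releasing hormone in somatostatin cells, which was at 23.8, 22.3, 20.3, 21.7 and 21.8 CPM in control NCX and 39.1, 30.5, 33.98, 35.7 and 25.5 CPM in cTKO NCX and rose by 0.59 on the log2 scale (SE 0.10, adjusted p = 0.0352). Over the lists, 10 of 82 genes had an unadjusted p under 0.05 in NCX and 16 of 83 in HP, beside 10.4% and 12% of all genes. None of the 10 partners and ligands of Erbb4, 8 genes downstream of Reln, 9 endocannabinoid genes around Cnr1 or 10 nitric oxide genes around Nos1 was called by genotype in either region, of which the ErbB4 list had 7 genes measured well enough and the endocannabinoid list 8. Of the lists of other cell types, Drd1, a dopamine receptor of striatal neurons, was also called in HP (log2 fold change 1.92, adjusted p = 3.3e-05).

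Between the regions, 67 of 83 genes tested were called in controls (30 higher and 37 lower in HP) and 48 in cTKO mice (20 and 28). Of all genes, 59.1% were called in controls (29.8% higher and 29.2% lower) and 41.3% in cTKO mice (20.2% and 21.1%), and these shares stand beside the count of every list that follows. The list of MGE-derived cells was lower in HP for 10 of 14 genes and higher for 1 in both genotypes, beside 29.2% and 21.1% of all genes called lower, with a median log2 difference of -0.56 in each (0.012 and -0.0028 over all genes), among them Satb1 (-1.05 and -1.13), Syt2 (-1.94 and -1.67), Kcnc1 (-0.71 in controls) and Tac1 (-1.72 in cTKO mice). Lhx6 and Pvalb, the members of that lineage, were lower in HP as well. The list of CGE-derived cells was mixed, with 8 genes higher and 4 lower of 14 in controls and 6 and 3 in cTKO mice. Prox1, a factor also made by dentate granule cells, was higher by 2.75 and 3.18, Krt73 by 2.33 and 2.47, and Ndnf by 0.84 in cTKO mice, while Cplx3 was lower by 1.84 in controls and 2.0 in cTKO mice, and Egln3 by 1.5 in controls. The pan-GABAergic genes were lower for 7 and higher for 1 of 10 in controls and lower for 5 in cTKO mice, as in Slc32a1 (-0.56 and -0.58), Dlx5 (-0.59 and -0.53), Dlx1 (-0.38 in controls) and Dlx6 (-1.26 in cTKO mice). Markers of striatal medium spiny neurons summed to 344 to 495 CPM in control NCX and 85.5 to 112 CPM in control HP. All 7 tested were called lower in HP in both genotypes. The part of striatal cells in the region differences of these lists was not tested.

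Around single members, the ligand Nrg1 of Erbb4 was lower in HP by 1.88 and 1.71, beside Nrg2 (-0.47), Egfr (-0.26) and Hbegf (0.29) in controls. Of the reelin pathway, the receptor gene Lrp8 was lower in HP (-0.42 and -0.31) and the signalling genes Crk (0.34 and 0.35) and Fyn (0.26 and 0.40) were higher, as were Dab1 (0.33) in controls and Src (0.43) in cTKO mice. Of the endocannabinoid genes 5 of 8 were higher in HP and 1 lower in controls and 4 were higher in cTKO mice: Faah (0.55 and 0.65), Napepld (1.20 and 1.32), Cnrip1 (0.36 and 0.46) and Abhd6 (0.23 and 0.29). Of the nitric oxide genes 6 were lower in HP and 2 higher in controls, against the direction of Nos1, with the guanylate cyclase subunits Gucy1a3 (-1.71 and -1.72) and Gucy1b3 (-0.33 and -0.36) and the kinase Prkg2 (-1.98 and -1.99) lower, Gucy1a2 (-0.57) lower in cTKO mice and Dlg4 (0.39) higher in controls. Of the EF-hand calcium-binding genes related to Pvalb and Calb2, 8 of 12 were higher and 4 lower in controls and 5 and 4 in cTKO mice. Hpca was higher by 1.51 and 1.57 and Necab1 lower by 1.03 and 1.07, with Necab2 (0.75) and Necab3 (-1.90) called in controls and Calml4 (3.03) and Hpcal1 (-0.69) in cTKO mice.

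The genes whose pattern over the 20 libraries was most like that of each member called in both genotypes were found by the root mean square difference of log2 CPM, each gene centred on its own mean, among 13468 genes. Pvalb was closest to Tspan14 (0.097), Znrf1 (0.11) and Ppard (0.12), against a spread of Pvalb around its own mean of 0.29. For Lhx6 they were Mamld1 (0.11), Pom121 (0.12) and Ttyh3 (0.12), with a spread of 0.28, and for Reln Prkar2b (0.13), Dync1h1 (0.13) and Myo5a (0.14), with 0.44. Adarb2 was closest to Lppr4, Fam126a and Ppfia2 (0.13 each), and Erbb4 to Kmt2a (0.15), Pgr (0.17) and Cep290 (0.17). The genes of widest range had less close neighbours, Plxnd1 (0.28), C130074G19Rik (0.29) and Chrdl1 (0.29) for Lamp5, whose own spread was 1.31, and Cpne7 (0.33), Hopx (0.34) and Nnat (0.35) for Calb2, whose own spread was 1.05. None of these neighbours is another member.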

How the data were processed

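Per the labels and the methods of the study, poly-A RNA of each region was made into libraries with a TruSeq kit, sequenced as 100-base single reads, mapped to mm10 with STAR 2.5.4a (submitters' processing notes) and counted on genes with HTSeq. The HTSeq version, annotation and strand setting are not given in the sources used here. The authors deposited raw counts, 1 table per library, with no rows other than gene symbols. Depth was 12169474 to 25331954 counts per library, and the floor of 3 counts covers counting error only, as PCR copies were not marked by molecular identifiers.

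Counts were scaled by TMM and tested with edgeR 4.0.16 (quasi-likelihood, R 4.3.3) on genes that exceeded 1 CPM in 5 or more libraries of a fit, with Benjamini-Hochberg adjustment over all genes tested and an FDR of 0.05. Genotype was fitted within each region, region within each genotype, and the interaction over all 20 libraries. SEs are the log2 fold change divided by the root of F, and intervals are 95%. Exact permutation tests over libraries were two-sided, on log2 CPM with a prior count of 2. Alternatives were DESeq2 1.42.0, the edgeR exact test, DESeq2 size factors, the replicate number as a block, a joint model of the 4 groups, a filter of 10 counts per library or none, another GABAergic reference, and libraries left out. The tests were checked on simulated counts.

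The 10 members and all lists were chosen with earlier results of these data known. Named were all members, up to 4 called genes of each of 8 pathway lists by smallest p, Gad1, Gad2, Slc32a1, Sst and Vip in the genotype comparisons, called genes of 14 cell type lists in the genotype comparisons (not between regions), App, Aplp1 and Aplp2, and the 3 genes most like each member called between regions in both genotypes. Some genes that the rule names are not reported here.

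Replicate numbers were checked as pairs by the correlation of deviations from the group means. Between the regions of control mice it was 0.13 to 0.335 for the same number, over 0.1 in 5 of 5. Those numbers were read as pairs, but the main tests between regions still took the libraries as independent. The pairing entered only in the alternative with the replicate number as a block. In cTKO mice the correlation was -0.0713 to 0.396 (3 of 5). Between the genotypes it was -0.00912 to 0.221 in NCX (3 of 5, with 4 of 5 closest to their own number) and -0.137 to 0.14 in HP (1 of 5). In these comparisons the numbers were not read as pairs. Replicates of a group differed beyond sampling noise (lowest chi-square per gene 3.82). Positions are from GENCODE M21 and start windows from RefSeq, both on GRCm38, as is mm10.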

Additional observations from a re-analysis of the deposited data

Results flagged for a closer look

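Dixon's test over each member's 5 libraries in each of the 4 groups singled out 2 values of Pvalb among 40 groups of libraries, where chance gives about 1 in 20. In control HP, replicate 3 had Pvalb at 31.8 CPM and the other 4 libraries at 27.2 to 28.0 CPM. In cTKO NCX, replicate 3 had Pvalb at 50.2 CPM and the others at 32.7 to 36.8 CPM. Without that library the log2 fold change of Pvalb in NCX was -0.24 (adjusted p = 0.109, edgeR quasi-likelihood test) in place of -0.12. The same library had the highest Lamp5 (223 CPM) and the lowest Erbb4 (18.5 CPM) and Adarb2 (19.9 CPM) of its group, and leaving it out made Lamp5 pass the test in NCX, as given above.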

How the results depend on the processing

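Numbers of genes called by genotype depended on the method. In NCX the 26 genes became 221 with DESeq2, 163 with the edgeR exact test, 42 with no filter, 12 with the replicate number as a block and 132 without the 2 libraries that stood apart. Leaving out single libraries gave 7 to 132, with 120 without cTKO NCX 3, 132 without cTKO NCX 5 and 7 to 13 without any one of the other 8. The members called rose from 0 to 1, Lamp5, with DESeq2 and the exact test (0 to 1 over single libraries left out). In HP the 67 genes became 331 with DESeq2, 257 with the exact test and 189 in one fit of all 20 libraries (17 to 149 with a library left out, the former without control HP 4 and the latter without cTKO HP 5), and the 1 member stayed 1 in these (0 to 1). The 8 genes of the interaction became 26 with DESeq2 and 18 with the block (6 to 20, with 15 without cTKO HP 3 and 20 without cTKO HP 5). Region counts moved by less than 1.5 times in every alternative, from 7258 to 8682 in controls and 4943 to 7037 in cTKO mice. The block changed no member's call.

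Signs turned only for members with values near 0, none of them called. Without the 2 libraries, Adarb2 in NCX was 0.0022 and the interactions of Lamp5 and Reln were 0.017 and -0.040. The interaction of Reln was -0.00039 with DESeq2, -0.00026 with its size factors and -0.0017 with no filter and that of Erbb4 -0.00067 with DESeq2, -0.00037 with its size factors and -0.0023 with no filter. With a library left out, Adarb2 ran from -0.081 to 0.073 in NCX and from -0.11 to 0.030 in HP, Lhx6 in NCX from -0.082 to 0.0015, and the interactions of Adarb2 from -0.12 to 0.037, Erbb4 from -0.14 to 0.095, Lamp5 from -0.14 to 0.094, Pvalb from -0.0027 to 0.18 and Reln from -0.100 to 0.066. The cause of these shifts was not tested. Relative to the GABAergic reference, the median of the list in place of Gad1, Gad2 and Slc32a1 turned the sign for Reln in both regions (0.10 in NCX and 0.070 in HP), Cnr1 (0.19), Nos1 (0.25) and Sp8 (0.11) in NCX and Lhx6 in HP (0.16). Depth bears most on Sp8, with 20 to 52 counts in a library.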
